A study of Homo sapiens with 8 samples.

Results

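Cells meet oxidants and foreign compounds with a set of genes that make and recycle glutathione and thioredoxin, supply NADPH, bind iron and conjugate reactive chemicals, and 35 such genes were examined here in drug-resistant rhabdoid tumor cells. They comprise 18 genes of an NRF2 list (NFE2L2, the gene for NRF2, and its known targets), 7 targets of the aryl hydrocarbon receptor (AHR), and 10 further glutathione, peroxide and superoxide enzymes. A probe was found for 33 of the 35 genes (52 probes in all, among 48107 probes and 20046 genes on the array), and none was matched to OSGIN1 or FTH1. Each gene is given by its probe of highest mean over the arrays.

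Expression was measured on 8 Illumina HumanHT-12 arrays of A204, an established malignant rhabdoid tumor (MRT) line that lacks SMARCB1, part of the SWI/SNF complex that remodels chromatin. The resistant group held 1 array each of the sublines DasR, SunR and PazR, kept in 5 µM dasatinib, sunitinib or pazopanib, the tyrosine kinase inhibitor (TKI) to which each had acquired resistance under long-term escalating doses. The treated parental group held 1 array each of parental A204 in 5 µM of the same TKIs. The untreated parental group held 2 arrays of A204 whose labels say no drug, while the study's text speaks of a DMSO control, so the presence of vehicle is not settled. Each subline is a single selected population, and copy number changes on 17q and 13q are known in DasR alone. The study compared resistant with treated parental cells to find what changes with acquired resistance. The resistant and treated parental arrays differ within their group in subline or drug, with no repeat culture of any of them, and nothing says whether the untreated arrays came from separate cultures. The spread behind every p-value is therefore the spread between arrays and includes differences between drugs.

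All values are log2 intensity, on which a difference of 1 is a doubling, and every array had the same median of 6.67. The probe for the deleted SMARCB1 averaged 6.82, which serves here as a mark of the dim end of the scale. PDGFRA, the kinase the study followed, read between 9.63 and 10.45 in the resistant arrays, against 12.22 to 12.60 in treated parental arrays and 12.08 to 12.50 in untreated arrays. VIM was among the brightest genes, at 14.24 or above in every array, and the brightest probes of PTPRC, EPCAM, PECAM1, MYOD1 and MYOG averaged 6.54 to 6.72. The untreated arrays were unlike each other in a way that ran with the groups. A 28S ribosomal RNA probe (RNA28SN5) read 8.61 to 9.35 in the resistant arrays and 12.44 to 12.55 in the treated parental arrays, and the untreated arrays had 8.35 (replicate 1) and 11.84 (replicate 2). Across all probes, untreated replicate 1 correlated at 0.982 with the resistant arrays and at 0.970 with the treated parental arrays, and untreated replicate 2 at 0.969 and 0.979 (means over 3 arrays, as a description). A fit with this division of the arrays as a term, called the array set here, was run beside the main one. It tests the first comparison against a single untreated pair.

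NRF2 is a transcription factor that the adaptor KEAP1 marks for degradation until oxidants or electrophiles modify KEAP1. Stabilized NRF2 binds antioxidant response elements (ARE) and raises enzymes that make glutathione, reduce thioredoxin, regenerate NADPH and store iron. AHR is a ligand-activated factor best known for inducing the CYP1 family of cytochromes P450 through xenobiotic response elements (XRE). Both pathways can share targets such as NQO1.

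The promoters show which members carry the letters of an ARE core near their start sites, independent of the array values. In the RefSeq promoter sequences (GRCh38.p14, 300 bases around each start), the core TGACNNNGC was searched on both strands. It occurred in 13.3% of 35116 promoters of all genes and in 11 of 42 promoters of the members (26.2%). Promoters were listed for 27 members. Among these, the core was found in at least 1 promoter for 3 of 6 members that were higher in resistant than in treated parental cells (GCLM, PGD and GSTP1) and for 7 of 20 members that were not called. A match describes letters, not a bound site, and the lack of one in NQO1, GCLC and TXN says only that the window does not hold it. The upstream stretches of these 3 genes and of GSTA4, a member that read lower in resistant cells, follow 5′ to 3′ on the gene's strand, with the core in capitals.
GCLM, chr1:93909431-93909524, minus strand, core on the opposite strand 34 to 26 bases before the start: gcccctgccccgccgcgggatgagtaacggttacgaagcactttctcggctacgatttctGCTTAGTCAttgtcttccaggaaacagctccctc
PGD, chr1:10398814-10398911, plus strand, core on the opposite strand 201 to 193 bases before the start: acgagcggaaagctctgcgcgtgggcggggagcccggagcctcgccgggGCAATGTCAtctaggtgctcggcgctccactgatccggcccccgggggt
GSTP1, chr11:67583686-67583794, plus strand, core on the gene's strand 66 to 58 bases before the start: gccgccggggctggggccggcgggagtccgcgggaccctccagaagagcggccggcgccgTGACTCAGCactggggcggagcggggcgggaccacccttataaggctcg
GSTA4, chr6:52995285-52995353, minus strand, core on the gene's strand 9 bases to 1 base before the start: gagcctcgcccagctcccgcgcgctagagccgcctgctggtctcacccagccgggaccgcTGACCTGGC
Of these matches, the one in GSTP1 also holds the AP-1 letters TGANTCA, and the others do not. The XRE core GCGTG, 5 letters long, occurred in 36.5% of all promoters and in 23 of the 42 promoters of the members (54.8%). Counted by member, with up to several promoters each, 5 of the 6 called and 11 of the 20 not called had at least 1 match.

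Resistant sublines were first compared with parental cells in the same TKIs. In bulk RNA, a change in the number of cells that carry a transcript and in its level per cell cannot be told apart. In this comparison 9 of the 33 members were higher in resistant cells at an adjusted p under 0.05 (limma, Benjamini-Hochberg over all probes) and none was lower. With the array set as a term none of the 9 passed (limma, lowest adjusted p = 0.973), and neither did any other probe of the genes named below. With the drug as a block the same 9 passed, and GSTA4 as 1 lower, while 3713 of 48107 probes passed in that fit. Over all genes, each by its brightest probe as the members are, 7.33% passed without the term and 3.50% were higher. Over all probes these shares were 6.04% in all, 2.71% higher and 3.33% lower. By role, 8 of 16 measured genes of the NRF2 list were called, 0 of 7 AHR targets, and 1 of 10 further glutathione and peroxide enzymes. An unadjusted limma p under 0.05 was seen in 1 AHR target, against 4993 of 20046 genes. The median difference was 0.58 over the NRF2 list, 0.01 over the AHR targets and 0.19 over the other enzymes, against 0.00 over all genes. In 15 members every resistant array read above every treated parental array, and in 3 every one read below; over all genes these shares were 14.8% and 14.8%.

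**Figure D1:**
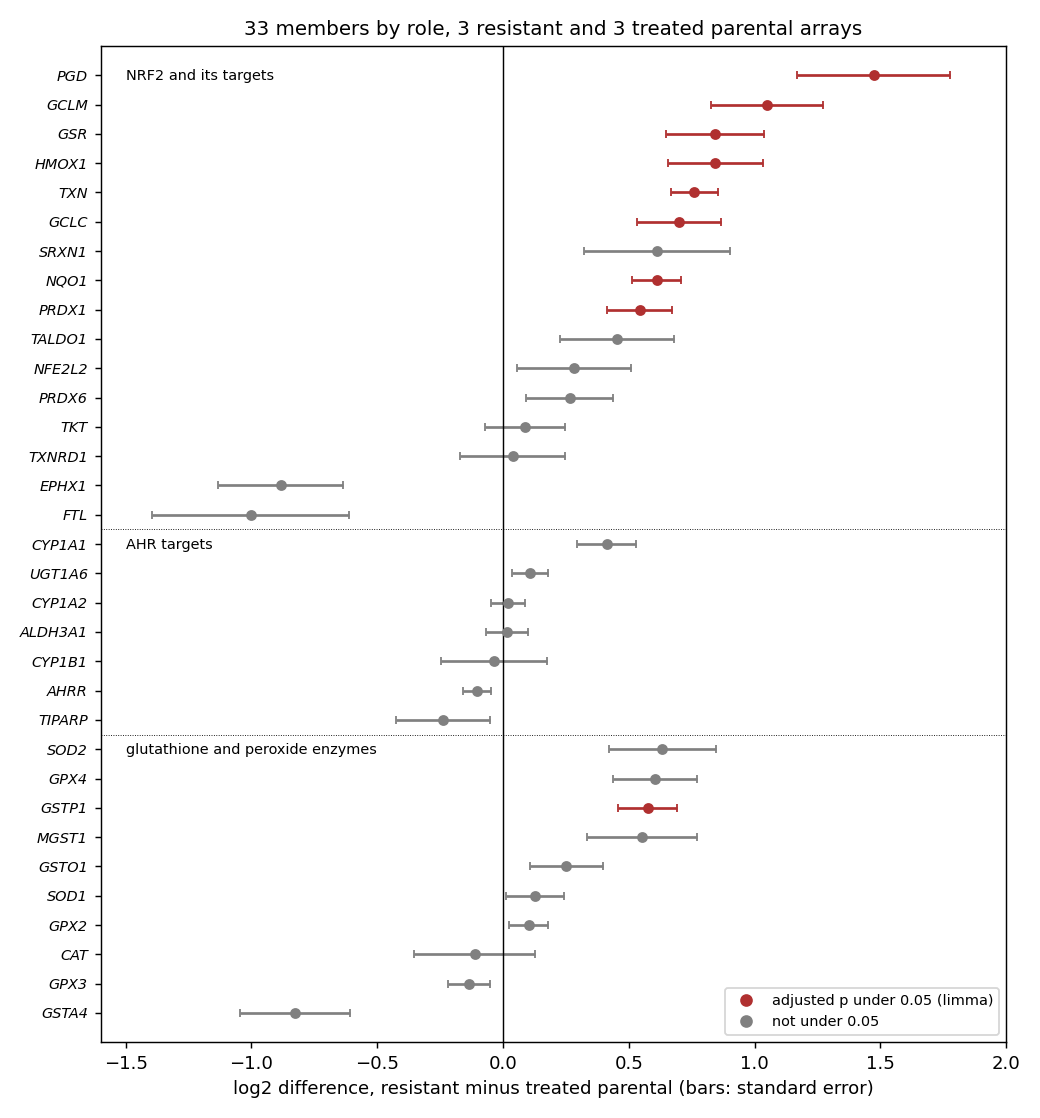
Difference in log2 intensity, resistant minus treated parental (x axis), for the 33 measured members (y axis) in 3 lists, with standard errors from limma and 3 arrays in each group. The 9 called members (red) lie between 0.54 and 1.47, and 8 of them are in the NRF2 list.

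Glutathione is made in a pair of steps, the first by glutamate-cysteine ligase, whose modifier and catalytic subunits are GCLM and GCLC. GCLM read 10.45, 10.32 and 10.47 in DasR, PazR and SunR, against 9.64, 9.27 and 9.18 in parental cells in dasatinib, pazopanib and sunitinib, and 9.71 and 9.75 without drug. It was higher in resistant than in treated parental cells by 1.05 ± 0.22 (SE), a 2.07-fold difference (limma adjusted p = 0.019). The sublines lay above all 5 parental arrays. A second, dimmer GCLM probe read 8.42, 8.40 and 8.50 in the sublines and 8.79, 8.78 and 9.01 in treated parental cells (difference -0.42, limma adjusted p = 0.219). On that probe the untreated arrays read 8.19 (replicate 1) and 9.29 (replicate 2), parted as for RNA28SN5 and by more than that difference. Without the array set as a term, the GCLM probes therefore differed in direction. GCLC read 7.99, 7.93 and 8.43 in DasR, PazR and SunR, against 7.25, 7.49 and 7.50 in their treated parental counterparts and 7.66 and 7.45 without drug. Its difference was 0.70 ± 0.17 (limma adjusted p = 0.0332), again with no overlap between sublines and parental arrays. A second GCLC probe was dim, with a difference of 0.02 (limma adjusted p = 0.944). GSR, glutathione reductase, which returns oxidized glutathione to its reduced form, read 8.91, 8.73 and 8.46 in the sublines, against 8.10, 7.88 and 7.59 in treated parental cells and 8.47 and 8.0 untreated. GSR was higher in resistant than in treated parental cells by 0.84 ± 0.20 (limma adjusted p = 0.029), while untreated replicate 1 fell within the range of the sublines. A dimmer GSR probe differed by 0.21 (limma adjusted p = 0.255).

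Thioredoxin reduces protein disulfides and feeds peroxiredoxins, which remove peroxides. TXN was the member with the smallest adjusted p, and read 14.23, 14.41 and 14.50 in DasR, PazR and SunR, against 13.72, 13.56 and 13.59 in treated parental cells and 14.22 and 13.83 in untreated cells. The difference was 0.76 ± 0.09 (1.69-fold, limma adjusted p = 0.00118). On this probe the treated parental arrays lay below all other arrays, and untreated replicate 1 was level with DasR. The second TXN probe gave a difference of 0.86 (limma adjusted p = 0.000877). Its untreated arrays read 13.92 (replicate 1) and 13.11 (replicate 2), a gap of 0.81, nearly as wide as that difference. PRDX1, a peroxiredoxin, read 13.63, 13.42 and 13.49 in the sublines, against 12.88, 12.82 and 13.21 in treated parental cells and 13.17 and 13.42 without drug. PRDX1 was higher by 0.54 ± 0.13 (limma adjusted p = 0.0325), and its second probe gave 0.62 (adjusted p = 0.00911). PRDX6, which acts on phospholipid peroxides too, did not pass (0.27 ± 0.17, limma adjusted p = 0.433).
SRXN1, sulfiredoxin, which repairs over-oxidized peroxiredoxins, read 9.14 in DasR, 9.18 in PazR and 10.17 in SunR, against 9.15, 8.81 and 8.69 in the treated parental cells and 8.96 and 9.03 without drug (difference 0.61 ± 0.29, limma adjusted p = 0.266). SunR stood apart from the other 7 arrays, which overlapped. TXNRD1, thioredoxin reductase, read 11.43, 11.69 and 11.96 in DasR, PazR and SunR, against 11.90, 11.66 and 11.39 in treated parental cells, so the groups overlapped and the difference was 0.04 ± 0.21 (limma adjusted p = 0.943). A second bright TXNRD1 probe read 11.27, 11.40 and 11.70 in the sublines, against 11.24, 11.40 and 9.96 in treated parental cells (0.59 ± 0.34, limma adjusted p = 0.364), where parental cells in sunitinib stood below the other 5 arrays.

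NADPH for both systems comes from the pentose phosphate pathway. PGD, 6-phosphogluconate dehydrogenase, read 10.86, 11.68 and 12.09 in DasR, PazR and SunR, against 9.96, 9.87 and 10.38 in treated parental cells and 9.80 and 9.75 without drug. This was the member with the largest difference, 1.47 ± 0.30 (2.78-fold, limma adjusted p = 0.0173), and all sublines lay above all parental arrays. TALDO1, transaldolase of the same pathway, read 11.74, 12.07 and 12.66 in the sublines, against 11.81, 11.62 and 11.68 in treated parental cells (0.45 ± 0.23, limma adjusted p = 0.29). PazR and SunR were above the treated parental range and DasR was inside it. TKT, transketolase, differed by 0.09 ± 0.16 (limma adjusted p = 0.814) with overlapping arrays.

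Among the remaining NRF2 targets, NQO1, a quinone reductase often used as a readout of NRF2, read 13.80, 13.91 and 13.94 in DasR, PazR and SunR, against 13.17, 13.30 and 13.34 in treated parental cells and 13.77 and 13.49 without drug. It was higher in resistant than in treated parental cells by 0.61 ± 0.10 (limma adjusted p = 0.00464), and the sublines were also above both untreated arrays, though DasR only just exceeded replicate 1. A second, dimmer NQO1 probe read 9.38, 9.81 and 9.22 in the sublines and 9.84, 9.57 and 9.77 in treated parental cells, which overlap (-0.26, limma adjusted p = 0.589). On that probe the untreated arrays read 9.19 (replicate 1) and 9.85 (replicate 2), a wider gap in the same direction. HMOX1, heme oxygenase 1, read 8.76, 8.74 and 9.03 in the sublines, against 7.76, 8.05 and 8.19 in treated parental cells and 7.98 and 8.06 without drug (0.84 ± 0.19, limma adjusted p = 0.0245). The parental arrays with and without drug overlapped and all lay below the sublines. NFE2L2, the gene for NRF2 itself, whose activity is set mainly at the protein level, read 10.62, 11.02 and 11.22 in DasR, PazR and SunR, against 10.79, 10.73 and 10.50 in treated parental cells and 10.67 and 10.08 without drug, and did not pass (0.28 ± 0.23, limma adjusted p = 0.539).

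**Figure D2:**
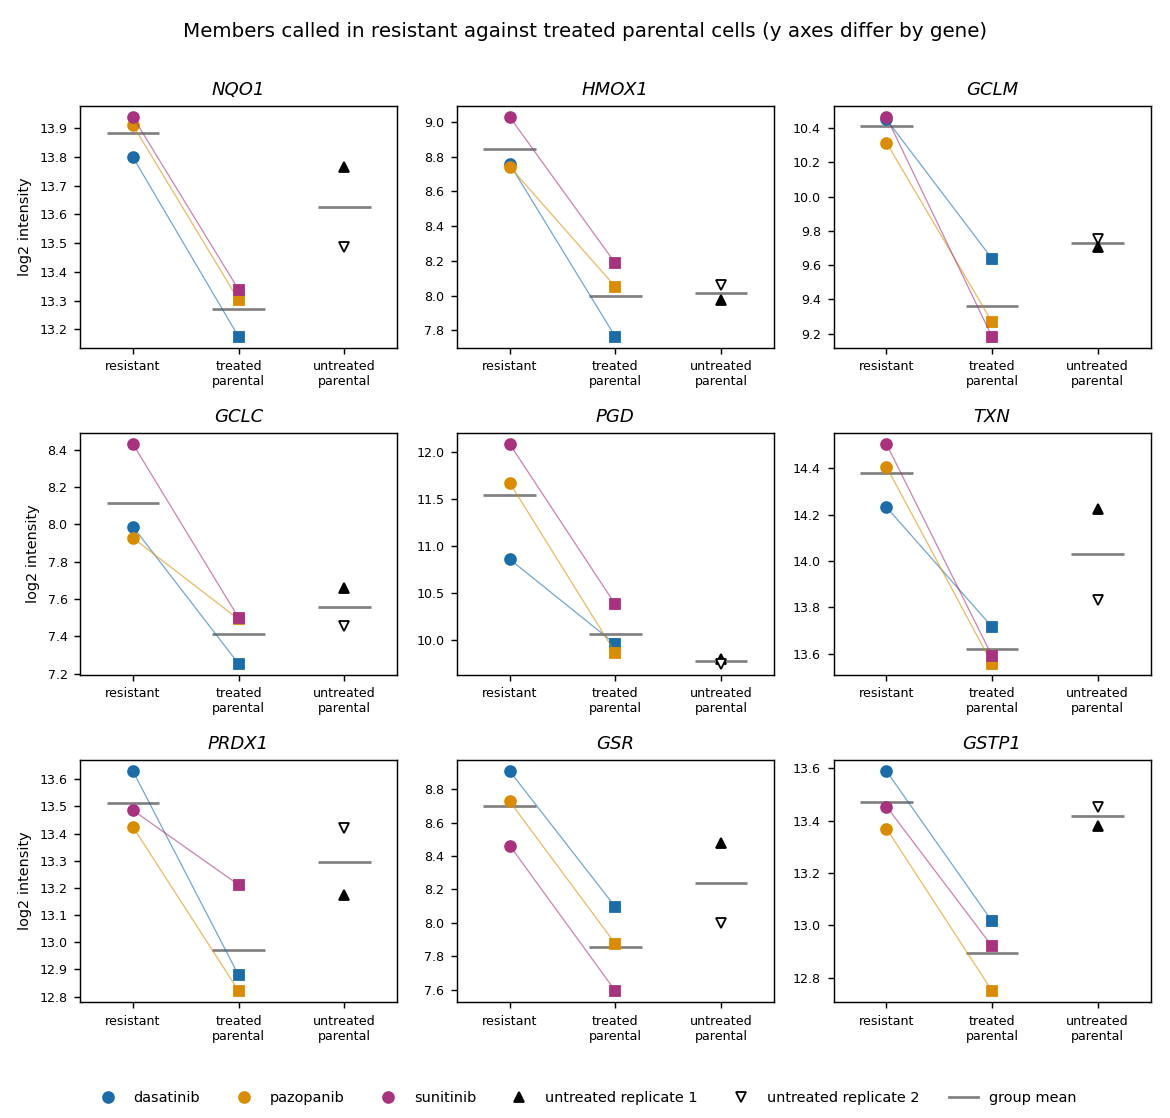
Log2 intensity (y axis, own scale for each gene) of the 9 called members in resistant, treated parental and untreated parental arrays, 1 point per array, with lines joining a subline and parental cells in the same drug and grey bars for group means. No resistant point falls to the level of a treated parental point, while the untreated arrays lie near the sublines for GSTP1 and near the treated parental cells for HMOX1.

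A pair of genes in the NRF2 list read lower in the sublines without passing. FTL, the light chain of the iron store ferritin, read 11.22 in DasR, 12.26 in PazR and 13.37 in SunR, against 13.29, 13.42 and 13.15 in treated parental cells and 11.91 and 12.10 without drug. The treated parental arrays and SunR were close to each other, DasR was lowest of all, and the mean difference of -1.0 ± 0.39 had a limma adjusted p of 0.172. Leaving out 1 array moved it between -0.47 and -1.55, and FTL passed as lower without SunR (limma adjusted p = 0.00579). Its second probe ran the same way (-0.95, limma adjusted p = 0.224). Ferritin light chain has many processed copies in the genome, which a probe may not separate. EPHX1, microsomal epoxide hydrolase, read 7.30, 7.41 and 7.86 in DasR, PazR and SunR, against 8.84, 8.54 and 7.84 in dasatinib, pazopanib and sunitinib and 7.26 and 7.86 without drug (-0.88 ± 0.25, limma adjusted p = 0.0614). Parental cells in dasatinib and in pazopanib stood above the other 6 arrays. EPHX1 passed as lower without SunR (limma adjusted p = 0.0378), without parental cells in sunitinib (0.00851) and with robust estimation (0.0465).

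Of the glutathione transferases, GSTP1, the pi class enzyme common in tumors, was called. It read 13.59, 13.37 and 13.45 in the sublines, against 13.02, 12.75 and 12.92 in treated parental cells and 13.38 and 13.45 without drug (0.57 ± 0.12, 1.49-fold, limma adjusted p = 0.0176). Sublines and untreated cells shared a range, and the treated parental arrays lay below both. GSTA4, which conjugates the lipid peroxidation product 4-hydroxynonenal, ran the other way with 10.28, 10.42 and 9.95 in the sublines, against 10.95, 11.21 and 10.96 in treated parental cells and 10.34 and 10.44 without drug. Its difference of -0.83 ± 0.22 was on the edge of the threshold (limma adjusted p = 0.0504), with the treated parental arrays above all others. With the drug as a block, which pairs each subline with parental cells in its drug, GSTA4 passed (limma adjusted p = 0.0328). MGST1, a membrane-bound transferase and peroxidase, read 9.90, 10.03 and 10.04 in the sublines, against 9.58, 9.55 and 9.19 in treated parental cells and 9.31 and 9.22 without drug (0.55 ± 0.22, limma adjusted p = 0.175). The sublines were above all parental arrays, and a dimmer MGST1 probe passed (0.93, limma adjusted p = 0.00767). On that dimmer probe the untreated arrays read 7.94 (replicate 1) and 7.23 (replicate 2), a gap of 0.72 in the direction of the call. GSTO1, an omega class transferase, differed by 0.25 ± 0.15 (limma adjusted p = 0.366). Every subline was above every treated parental array on this probe, while the groups overlapped on a second bright probe (0.23, limma adjusted p = 0.573).

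GPX4, the glutathione peroxidase that reduces lipid peroxides in membranes, read 13.02, 13.47 and 13.67 in DasR, PazR and SunR, against 12.87, 12.86 and 12.60 in treated parental cells and 12.77 and 12.62 without drug (0.60 ± 0.17, limma adjusted p = 0.057). On this probe every subline lay above every parental array. A second bright GPX4 probe differed by 0.45 (limma adjusted p = 0.208), with DasR (12.33) below parental cells in dasatinib (12.42). SOD2, the mitochondrial superoxide dismutase, read 9.99, 9.93 and 10.03 in the sublines, against 9.43, 9.49 and 9.13 in treated parental cells and 9.71 and 9.68 without drug (0.63 ± 0.21, limma adjusted p = 0.114), and a dimmer SOD2 probe passed (0.72, adjusted p = 0.016). The groups did not overlap on either of these probes, with untreated cells in the middle (7.74 and 7.45 on the dimmer one). The cytosolic dismutase SOD1 (0.13 ± 0.11, limma adjusted p = 0.596) and CAT, catalase (-0.11 ± 0.24, adjusted p = 0.846), overlapped between groups. GPX2 and GPX3, peroxidases of the gut epithelium and the plasma, read between 6.37 and 6.79 in every array, at the dim end of the scale.

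Of the AHR targets, CYP1B1 and TIPARP, a member of the poly(ADP-ribose) polymerase family that represses AHR, were bright and the rest were dim. CYP1B1 read 12.14, 12.80 and 13.10 in DasR, PazR and SunR, against 12.78, 12.64 and 12.73 in treated parental cells and 12.02 and 11.93 without drug. TIPARP read 11.18, 11.61 and 11.60 in the sublines, against 11.68, 11.69 and 11.73 in treated parental cells and 11.24 and 11.08 without drug. Neither passed between resistant and treated parental cells (CYP1B1 -0.04 ± 0.21, limma adjusted p = 0.947; TIPARP -0.24 ± 0.19, limma adjusted p = 0.53), although all treated parental arrays were above the sublines for TIPARP and both untreated arrays were below the treated parental arrays for both genes. CYP1A1, the classical AHR target, read 7.24, 7.31 and 7.21 in the sublines, against 6.73, 6.71 and 7.09 in treated parental cells and 6.51 and 7.04 without drug (0.41 ± 0.12, limma adjusted p = 0.0647). Its sublines lay above all parental arrays, close to the dim end of the scale. CYP1A2, AHRR (the AHR repressor), ALDH3A1 and UGT1A6 averaged below the SMARCB1 probe, and their differences ran from -0.10 for AHRR to 0.11 for UGT1A6, none called. UGT1A6 shares its later exons with the rest of the UGT1A locus, so its probes may not be specific.

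**Figure D3:**
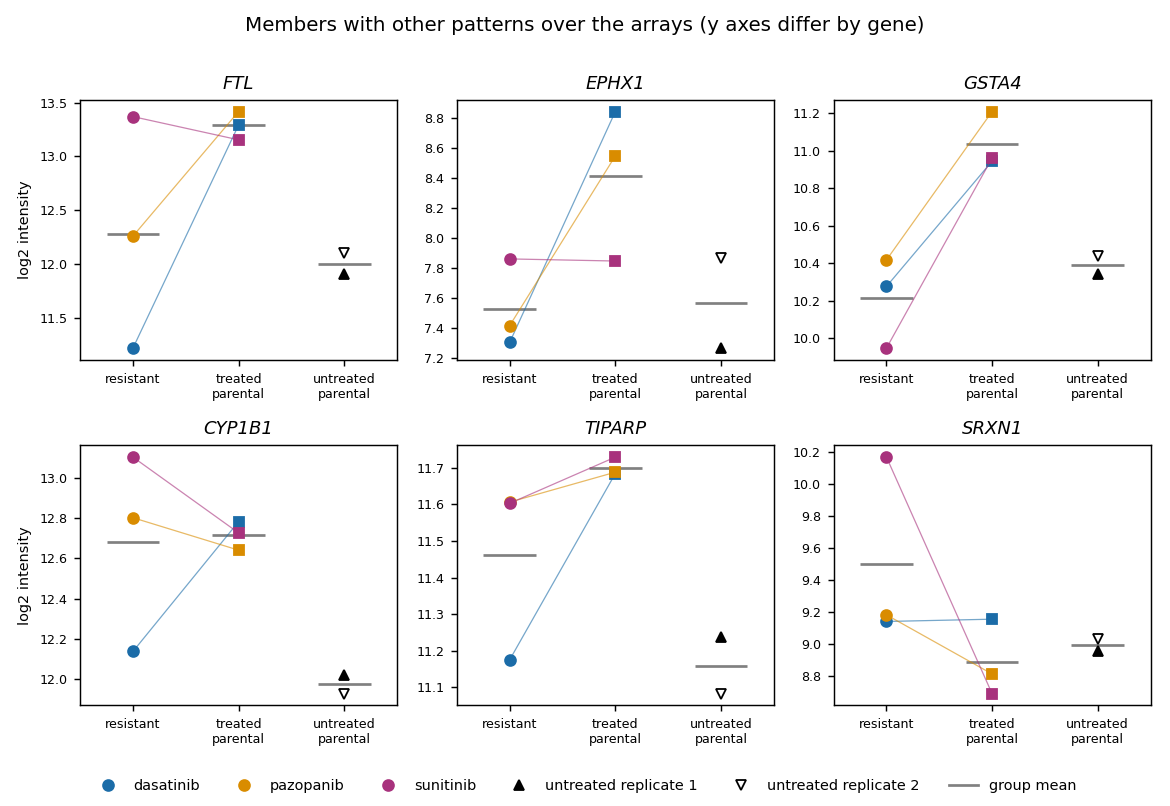
Log2 intensity (y axis, own scale for each gene) of 6 members that were not called in resistant against treated parental cells, 1 point per array, with lines joining a subline and parental cells in the same drug. For FTL and EPHX1 the difference between subline and parental cells varies by drug, with 1 array on each side and not tested. The treated parental arrays are highest for GSTA4 and TIPARP, CYP1B1 is lowest without drug, and SRXN1 is highest in SunR.

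The other genes of these pathways were counted from lists chosen by role. In the wider NRF2 list 2 of 22 measured genes passed between resistant and treated parental cells. UGDH, which makes UDP-glucuronic acid for conjugation, was higher (1.04 ± 0.24, limma adjusted p = 0.0296), and MAFF, a small MAF protein that pairs with NRF2, was lower (-1.02 ± 0.18, limma adjusted p = 0.00701). MAFF read 7.95, 7.95 and 7.89 in the sublines, against 8.83, 9.15 and 8.89 in treated parental cells, but 7.69 and 9.27 in the untreated arrays, which it parted as RNA28SN5 did. In the wider AHR list 3 of 7 passed, with ARNT2, a partner of AHR, higher (0.61 ± 0.14, limma adjusted p = 0.0271), NEDD9, a scaffold protein, higher (1.21 ± 0.22, limma adjusted p = 0.00994) and HSP90AB1, a chaperone that holds AHR, lower (-0.63 ± 0.16, limma adjusted p = 0.041). NEDD9, given by 1 of its 4 probes, read 6.29 to 6.42 in all parental arrays, at the dim end of the scale. It read 7.97 in DasR and 7.75 in SunR, but 6.84 in PazR. Among 44 further glutathione and peroxide genes 4 passed. CHAC2, which degrades glutathione, and the glutaredoxins GLRX3 and GLRX5 were higher by 1.03, 1.02 and 0.80 (limma adjusted p = 0.041, 0.038 and 0.0256), and GPX7, a peroxidase of the endoplasmic reticulum, was lower (difference -1.43, limma adjusted p = 0.0131). These shares stand beside the 7.33% of all genes given above. With the array set as a term none of these 9 genes passed (limma, lowest adjusted p = 0.973), MAFF turned to 0.56 ± 0.35, and the other 8 kept their direction.

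Treated parental cells were next compared with untreated parental cells, to see what 5 µM of a TKI did to the members. None of the 33 passed (limma, lowest adjusted p = 0.159), and 2 of 48107 probes on the array passed (0.00416%). An unadjusted limma p under 0.05 was seen in 8 members, against 3089 of 20046 genes. Every treated array read above both untreated arrays in 7 members and below in 5, against 15.9% and 17.2% of all genes. The 7 were PGD, FTL, CYP1B1, TIPARP, AHRR, GSTA4 and CAT, and the 5 were NQO1, GCLM, TXN, GSTP1 and SOD2. FTL had the largest difference (1.28 ± 0.42, limma adjusted p = 0.235), followed by EPHX1 (0.85 ± 0.28, adjusted p = 0.242) and CYP1B1 (0.74 ± 0.23, adjusted p = 0.221). GSTP1 had the smallest p, with a difference of -0.52 ± 0.13.

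Resistant cells were also compared with untreated parental cells. Again none of the 33 members passed, against 133 probes or 0.276% of the array. An unadjusted limma p under 0.05 was seen in 9 members, against 1728 of 20046 genes. PGD came closest, at 1.77 ± 0.33 (limma adjusted p = 0.0525), followed by HMOX1 at 0.83 ± 0.20 (adjusted p = 0.212) and GPX4 at 0.69 ± 0.19 (adjusted p = 0.302). All 3 sublines read above both untreated arrays in 14 members, and below both in 1, GPX3, which was dim; over all genes these shares were 11.9% and 13.0%. Because this comparison shares the resistant arrays with the first and the untreated arrays with the second, the members' values are set side by side only. For PGD the differences were 1.47 against treated and 1.77 against untreated parental cells, for HMOX1 0.84 and 0.83, and for MGST1 0.55 and 0.72. For GSTP1 they were 0.57 and 0.05, for TXN 0.76 and 0.35, and for NQO1 0.61 and 0.26.

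Drugs were then compared one by one. Each subline minus the parental cells in its own drug gives a single difference without a test. All 9 called members were higher in the subline in each of the 3 drugs. This had to be so, since their resistant and treated parental arrays did not overlap, and it adds no evidence. In size, NQO1 was at 0.62 in DasR, 0.61 in PazR and 0.60 in SunR, and GSR at 0.81, 0.85 and 0.87. PGD varied more, at 0.90, 1.81 and 1.71. A difference over 1 in size was seen in 2 of the 33 members for DasR, both lower (FTL -2.07 and EPHX1 -1.54), against 6.65% of all genes. PazR had 4, with PGD and GCLM (1.05) higher and FTL (-1.16) and EPHX1 (-1.13) lower, against 5.09% of genes. SunR had 5, with PGD, SRXN1 (1.48), GCLM (1.28) and GPX4 (1.07) higher and GSTA4 (-1.02) lower, against 4.50% of genes. In SunR all 16 genes of the NRF2 list read higher than in parental cells in sunitinib, with a median of 0.78. Over all genes 9731 of 20046 read higher there, with a median of -0.01. Of the 16, TKT (0.004) and EPHX1 (0.01) barely differed. In DasR 10 of the 16 read higher (median 0.45) and in PazR 13 (median 0.44), against 10257 and 10328 of 20046 genes.

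**Figure D4:**
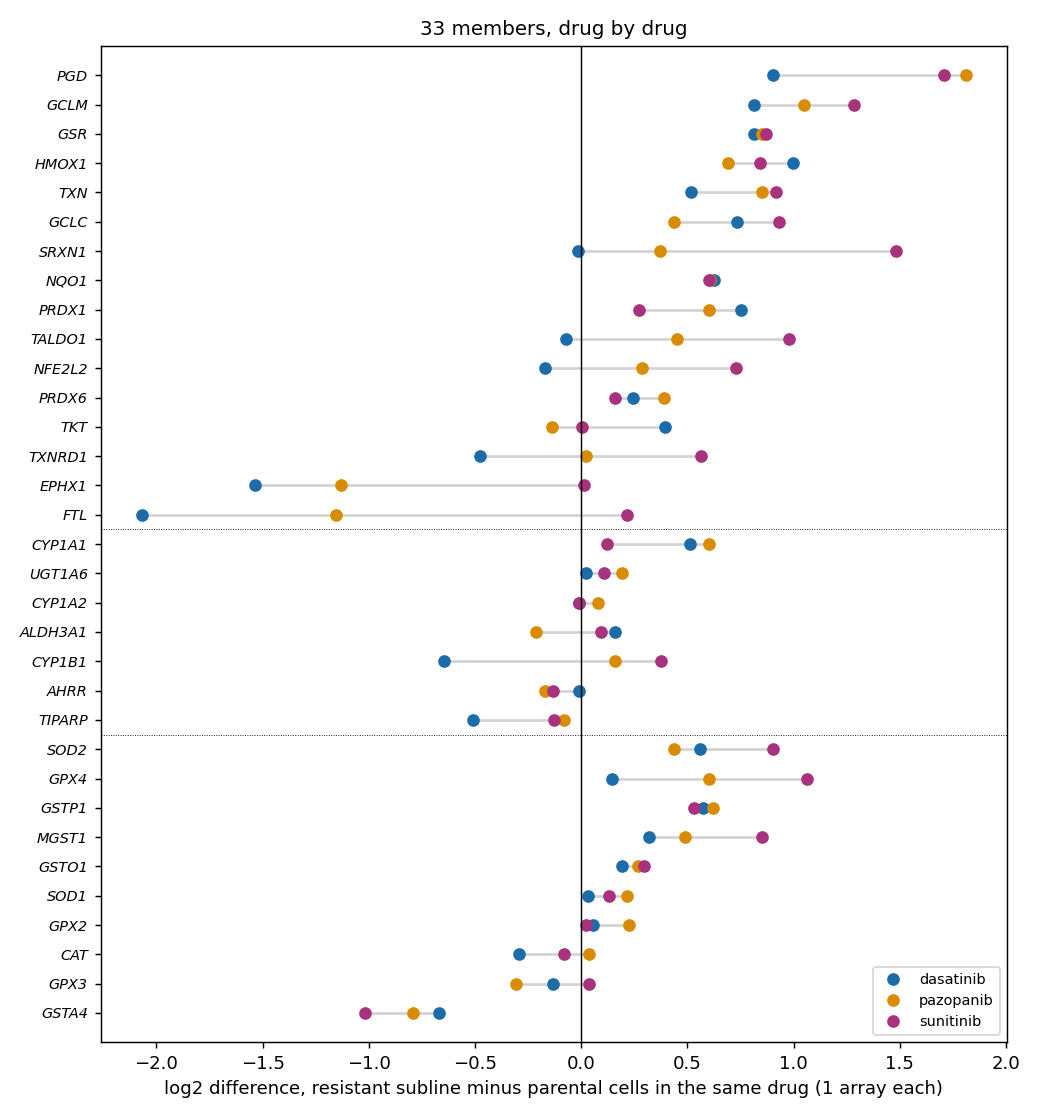
Difference in log2 intensity, subline minus parental cells in the same drug (x axis), for the 33 members (y axis), 1 array on each side, with 1 point per drug and a grey line over the range. NQO1, GSR and GSTP1 have nearly the same difference in each drug, while FTL spans -2.07 for dasatinib to 0.22 for sunitinib.

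Drug was tested over parental and resistant arrays together, with state as a further term. No member passed for a difference between the 3 drugs (limma F test, lowest adjusted p = 0.722), while 5 probes or 0.0104% of the array did. An unadjusted p under 0.05 was seen in 1 member, against 1720 of 20046 genes. On the simulated arrays described below, this test recovered 12% of changes of 1 and 48% of changes of 2. A drug effect that differs between states, as in the FTL values, counts as spread in this fit. The lack of a call therefore does not show that the drugs acted alike. No member passed for sunitinib against dasatinib and pazopanib either (limma, lowest adjusted p = 0.462), while 20 probes or 0.0416% did. For that contrast 2 members had an unadjusted p under 0.05, against 2302 of 20046 genes. On the simulated arrays it recovered 28% of changes of 1 and 73% of changes of 2. PGD was 0.64 ± 0.24 higher in sunitinib arrays and GSR 0.37 lower (difference -0.37 ± 0.16), the only members with an unadjusted p under 0.05.

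The calls of the first comparison depended on single arrays and on the array set. Between 2 and 11 of the 33 members passed when 1 of the 6 arrays was left out (2 without parental cells in pazopanib, 3 without PazR, 4 without parental cells in dasatinib), and NQO1 and TXN passed each time. These counts include genes outside the 9, and between 1032 and 3890 of the 48107 probes passed in these fits. Without SunR 8 passed, 2 of them lower (FTL and EPHX1), and without parental cells in sunitinib 11 passed, 2 of them lower (EPHX1 and GSTA4). With the array set as a term over all 8 arrays, no member passed (limma, lowest adjusted p = 0.973), while 6 had an unadjusted p under 0.05 and 1 probe on the whole array passed. The 6 were HMOX1, GCLM, PGD, PRDX1 and GSTP1 of the 9, and CYP1A1, which was not among the 9 (0.94 ± 0.23 with the term). No count of unadjusted p over all genes was made for that fit. The 9 called members kept their direction in it. PGD read 1.42 ± 0.62, GCLM 1.09 ± 0.44, HMOX1 0.93 ± 0.37, PRDX1 0.79 ± 0.26, GSTP1 0.65 ± 0.23 and GCLC 0.49 ± 0.33. TXN read 0.37 ± 0.19, GSR 0.37 ± 0.39 and NQO1 0.33 ± 0.19. Each of these estimates equals the difference between resistant and treated parental means minus the difference between the untreated arrays, so it rests on 1 untreated array against 1 and adds no evidence beyond that pair. Untreated replicate 1 minus replicate 2 was 0.39 for TXN, 0.48 for GSR and 0.28 for NQO1, and 0.05 for PGD, -0.08 for HMOX1, -0.05 for GCLM, 0.21 for GCLC, -0.25 for PRDX1 and -0.08 for GSTP1. It ran in the direction of the call in 5 of 9 called members (55.6%), against 86.0% of the called probes on the array.

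**Figure D5:**
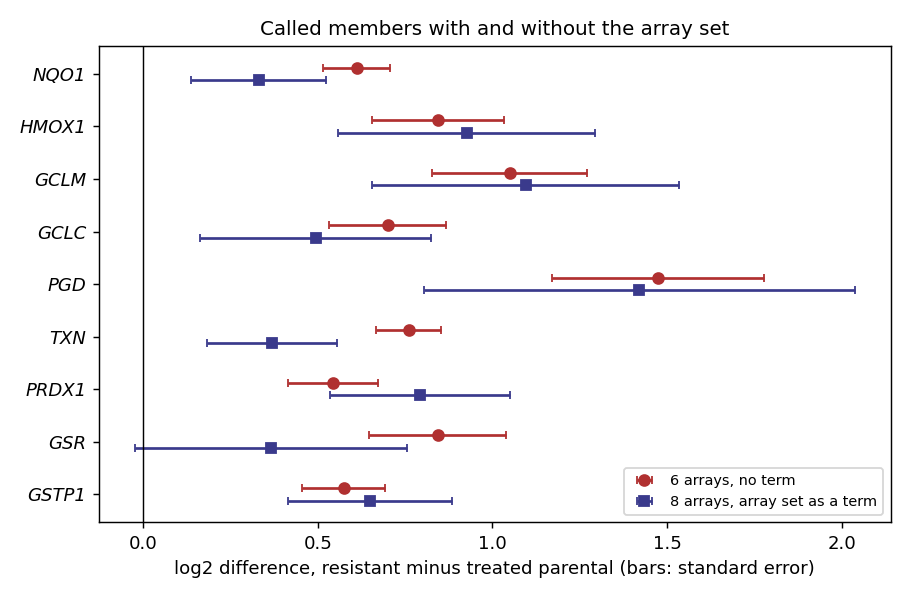
Difference in log2 intensity, resistant minus treated parental (x axis), for the 9 called members (y axis), from the 6 arrays without a term (red circles) and from all 8 arrays with the array set as a term (blue squares), with standard errors from limma. The estimates for NQO1, TXN, GSR and GCLC move closer to 0 with the term, while those for HMOX1, GCLM, PGD, PRDX1 and GSTP1 stay near or above their first value with wider errors.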

How the data were processed

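The authors preprocessed signals with beadarray, took log2 and quantile normalized them. The deposited table holds log2 intensity, without detection p-values. Probes were named through the platform annotation, with exactly 1 symbol for 30113 probes. Probes without a symbol stayed in every test. Resistant and treated parental arrays were compared with limma 3.58.1 in R 4.3.3 (lmFit, eBayes with trend), with Benjamini-Hochberg adjustment over 48107 probes and a threshold of 0.05. Comparisons with untreated cells used 1 fit of 8 arrays in 3 groups. Simulated arrays (48107 probes) had independent normal noise, no array set, and changes placed only among the brighter 50% of the probes. On them the resistant against treated parental fit recovered 51% of changes of 1 and 88% of changes of 2. These shares do not cover dim members or arrays divided by a set. All members are named, with other pathway genes where called. Members, lists and the array set were chosen with earlier results of these data known. Replicate numbers pair no arrays, while the labels pair them by drug. Deviations of resistant and parental arrays from their group means correlated weakly, at 0.126 (dasatinib), 0.184 (pazopanib) and 0.199 (sunitinib). Between unlike drugs these correlations ran from -0.162 to 0.051. Alternatives covered priors, dim probes, scale, probe choice, blocks and left-out arrays. Array data have no read depth, and their number limits the precision.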

Additional observations from a re-analysis of the deposited data

Results flagged for a closer look

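For 6 members, the difference between a subline and parental cells in the same drug had opposite signs in SunR and DasR and differed by over 1 on the log2 scale. FTL differed by 2.28 between SunR (0.22) and DasR (-2.07). For EPHX1 the gap was 1.55 (SunR 0.01, DasR -1.54), and for SRXN1 it was 1.49 (SunR 1.48, DasR -0.01). TALDO1 had a gap of 1.05 (SunR 0.98, DasR -0.07), TXNRD1 of 1.04 (SunR 0.56, DasR -0.47) and CYP1B1 of 1.02 (SunR 0.38, DasR -0.64). A second bright TXNRD1 probe gave 1.74 in SunR and 0.03 in DasR, without opposite signs. Each value rests on 1 array of either kind per drug, so these differences were not tested.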

How the results depend on the processing

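The count of members called in resistant against treated parental cells (9) became 0 with the array set as a term. It was 17 with the methods' t-test unadjusted, against 8271 of 48107 probes, and 0 after Benjamini-Hochberg adjustment, against 39 probes. By Signal2Noise, 0 members were among the 50 highest and 50 lowest probes. The limma count ranged from 2 to 11 when each array was left out, with 11 without parental cells in sunitinib. Against untreated cells the main count was 0. There 1 member (PGD) passed with robust estimation, against 147 of 48107 probes. With 1 probe per gene in the test 1 (PGD) passed, against 95 of 20046 probes. With a resistant array left out the count was 0 to 3. The 3 were PGD, CYP1B1 and GPX4 without DasR, where 262 of 48107 probes passed. For sunitinib against the other drugs the count moved from 0 only without parental cells in sunitinib, by FTL. That fit kept 1 sunitinib array, and far more probes passed in it than in the main fit. The members' median in treated against untreated parental cells (-0.02) ranged from -0.028 to 0.023 when arrays were left out. With the array set as a term, differences near 0 or with wide errors changed sign for PRDX6 (-0.14), NFE2L2 (-0.31), ALDH3A1 (-0.043), UGT1A6 (-0.16), GPX2 (-0.024) and SOD1 (-0.17). With an array left out, TXNRD1 ranged from -0.10 to 0.17, CYP1A2 from -0.037 to 0.068, CYP1B1 from -0.25 to 0.24, ALDH3A1 from -0.033 to 0.098 and CAT from -0.25 to 0.097. GSTA4 passed in 6 settings that left out no array, with limma adjusted p from 0.0211 without an intensity trend to 0.0477 with all 8 arrays. The causes were not tested. With the drug as a block, 10 members passed, the 9 and GSTA4, against 3713 of 48107 probes. No paired analysis by replicate number was possible because the numbers pair no arrays.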
